A study of Mus musculus with 9 samples.

Results

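The genes described here are 10 genes of the meningeal mesenchyme: Col1a1, Col1a2, Col3a1, Lum, Dcn, Foxc1, Foxd1, Aldh1a2, Pdgfra and Twist1. They were taken from a list and matched by symbol to the Ensembl identifiers of the counts table, which holds 57010 genes, and all 10 were found. Of these, 9 had more than 10 reads in every embryo and were among the 13680 genes tested, and Twist1 was not, because 1 embryo had 6 reads. RNA was sequenced from the microdissected cerebral cortex of 9 mouse embryos at embryonic day E12.5, with 3 embryos in each of 3 genotypes and a library for each embryo. The Ctrl embryos carry the genotype label WT, the Cnot3 cKO embryos are conditional knockouts of Cnot3, and the Cnot3;Trp53 dcKO embryos are double conditional knockouts of Cnot3 and Trp53. CNOT3 is a subunit of the CCR4-NOT complex, which shortens the poly(A) tails of mRNAs, and p53, the product of Trp53, is a transcription factor of the stress and cell death response. The floxed alleles were removed by Emx1-Cre, which acts in the radial glia of the dorsal telencephalon and in the progenitors and neurons that arise from them. The ages are the same in all groups, no agent was given, and the sources used here do not say whether Ctrl embryos carry Cre or floxed alleles.

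The meninges are the connective tissue sheets around the brain. Their fibroblasts secrete fibrillar collagens and small proteoglycans into the matrix and the basement membrane at the brain surface, and they release signals such as retinoic acid and BMPs to the cortex beneath. Over the forebrain they descend largely from the neural crest, a source other than the Emx1 lineage. None of the 10 genes is restricted to meningeal cells: the collagens and Pdgfra are also expressed by skin and skull mesenchyme, and collagens by cells of the vessel wall. The protocols do not mention whether the meninges were removed from the cortices. In RNA from whole tissue, fewer cells of a type and less RNA per cell cannot be told apart.

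Reads of all 10 genes were present in all 9 embryos. Levels between genes were compared as CPM, the count of a gene relative to the TMM-scaled total of its library over the tested genes, divided by the kilobases of exon. In Ctrl cortices (n = 3) Col3a1 was the most abundant, at 44.4 ± 2.85 CPM per kilobase (SD), and Lum (22.0 ± 5.04) and Col1a1 (18.7 ± 3.93) followed with embryos that overlapped. Below them stood Col1a2 (12.9 ± 0.801 CPM per kilobase) and Dcn (4.57 ± 0.710), each separated from its neighbours in every Ctrl embryo. Pdgfra (1.94 ± 0.468 CPM per kilobase) and Foxc1 (1.63 ± 0.109) overlapped, as did Twist1 (0.797 ± 0.257) and Aldh1a2 (0.681 ± 0.159), and Foxd1 was the lowest (0.375 ± 0.0800). The 3 collagens made up 83.3 to 88.3% of the summed CPM of the members in Ctrl embryos.

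The collagens and the proteoglycans differ in the sequence that the libraries sampled, so 90 coding bases of each are shown. For the collagens the stretch starts at the first glycine codon of the longest uninterrupted run of Gly-X-Y triplets, the repeat that winds into the triple helix, and for Lum and Dcn it starts at the first base of the coding sequence. Capitals mark the glycine codons, which all read GGN. The sequences are those of the longest coding transcripts of GENCODE M21 on GRCm38, read in the sense of the mRNA.
Col1a1: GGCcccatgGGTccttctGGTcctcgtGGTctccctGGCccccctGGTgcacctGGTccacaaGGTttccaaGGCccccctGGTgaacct
Col1a2: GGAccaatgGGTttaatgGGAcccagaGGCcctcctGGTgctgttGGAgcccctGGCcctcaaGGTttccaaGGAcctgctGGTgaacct
Col3a1: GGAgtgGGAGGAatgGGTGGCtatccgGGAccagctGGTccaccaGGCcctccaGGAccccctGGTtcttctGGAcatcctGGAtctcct
Lum: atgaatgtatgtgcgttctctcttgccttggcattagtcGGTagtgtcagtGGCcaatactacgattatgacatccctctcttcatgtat
Dcn: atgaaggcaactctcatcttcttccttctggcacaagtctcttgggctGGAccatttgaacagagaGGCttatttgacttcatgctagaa
In these stretches 10, 10 and 12 of the codons of Col1a1, Col1a2 and Col3a1 encode glycine, against 2 in Lum and 2 in Dcn. The uninterrupted run holds 338 triplets in Col1a1, 339 in Col1a2 and 344 in Col3a1. The GC content of the whole coding sequence is 62.9% in Col1a1, 59.5% in Col1a2 and 56.9% in Col3a1, and 44.3% in Lum and 47.5% in Dcn.

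The libraries held 21193798 to 28869816 counts in Ctrl embryos, 24835674 to 25946075 in cKO embryos and 23275370 to 45073349 in dcKO embryos. Cnot3 was at 107 ± 9.54 CPM (SD, n = 3) in Ctrl and 14.6 to 17.3 CPM in cKO embryos, and Trp53 was at 215 to 254 CPM in Ctrl and 164 to 167 CPM in cKO embryos. In dcKO, replicate 2 held 48.2 CPM of Cnot3 and 110.4 CPM of Trp53, against 7.33 and 19.0 CPM of Cnot3 and 15.1 and 20.6 CPM of Trp53 in replicates 1 and 3. The same replicate was the only embryo with reads of the ventral telencephalic factor Gsx2 (2.45 CPM), and it also held the most Dlx2 (2.25 CPM, against 0.326 CPM or less in the others). Libraries also differed in how levels followed GC content: along a smoothed trend, genes at the 90th percentile of GC content were higher than genes at the 10th by 0.29 to 0.82 (log2) in Ctrl and by 0.93 in dcKO replicate 3, and the difference was -0.19 to 0.16 in cKO and -1.47 and -1.14 in dcKO replicates 2 and 1. For the collagens, values without dcKO replicates 2 and 3 and with the GC trend subtracted are given below.

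The fibrillar collagens were called lower in dcKO by 1 of 2 tests, and in cKO by neither. All cKO and all dcKO embryos lay below all Ctrl embryos for Col1a1, Col1a2 and Col3a1, whose mean levels in dcKO were 0.275, 0.404 and 0.488 times those of Ctrl in the edgeR fit. The other members showed no such separation in dcKO, and in cKO only Twist1 did, upwards. DESeq2 called the 3 collagens lower in dcKO, whereas edgeR's quasi-likelihood test, the main test here, called no member in either mutant. That test called 2 of the 13680 tested genes higher in cKO and 0 lower, and 0 in dcKO. It did not call Cnot3 itself, at -2.78 in cKO and -2.11 in dcKO (edgeR adjusted p = 0.0509 and 0.0529). The absence of an edgeR call therefore does not set the members apart from other genes.

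Col1a1 encodes the main chain of type I collagen, the tensile fibril of connective tissue (chr11:94936224-94953042, GRCm38, plus strand, as for all 10 members). It was at 141, 135 and 93.3 CPM in Ctrl replicates 1 to 3, at 38.7, 81.0 and 32.2 CPM in cKO, and at 14.2, 14.7 and 72.9 CPM in dcKO. The lowest Ctrl embryo therefore stood above the highest embryo of either mutant, although cKO replicate 2 and dcKO replicate 3 stood well above the other embryos of their genotypes. The log2 fold change in cKO was -1.28 ± 0.61 (SE, edgeR adjusted p = 0.206, DESeq2 adjusted p = 0.107), and in dcKO it was -1.86 ± 0.62 (edgeR adjusted p = 0.0891, DESeq2 adjusted p = 0.0124). Without dcKO replicate 3 the dcKO value was -3.09 (edgeR adjusted p = 3.37e-04), and without replicate 2 it was -1.50 (adjusted p = 0.134).

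Col1a2 encodes the second chain of type I collagen (chr6:4504814-4541544). Its levels were 164, 168 and 149 CPM in Ctrl, 81.4, 146 and 80.8 CPM in cKO, and 47.9, 41.0 and 106 CPM in dcKO. The same cKO and dcKO embryos as for Col1a1 were the highest of their genotypes, and cKO replicate 2 came close to the lowest Ctrl embryo. The log2 fold change was -0.64 ± 0.36 in cKO (edgeR adjusted p = 0.269, DESeq2 adjusted p = 0.230) and -1.31 ± 0.36 in dcKO (edgeR adjusted p = 0.0610, DESeq2 adjusted p = 0.00655). Without dcKO replicate 3 the dcKO value was -1.85 (edgeR adjusted p = 4.26e-04), and without replicate 2 it was -1.07 (adjusted p = 0.0719).

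Col3a1 encodes type III collagen, which forms fine fibrils together with type I (chr1:45311538-45349706). It was counted at 410.5, 466 and 431 CPM in Ctrl, at 279, 356 and 251 CPM in cKO, and at 171, 185 and 283 CPM in dcKO. Its Ctrl embryos were close to one another, with a coefficient of variation of 6.43%, and again cKO replicate 2 and dcKO replicate 3 were the highest mutants. The log2 fold change was -0.56 ± 0.22 in cKO (edgeR adjusted p = 0.141, DESeq2 adjusted p = 0.0913) and -1.04 ± 0.22 in dcKO (edgeR adjusted p = 0.0502, DESeq2 adjusted p = 8.91e-04). Without dcKO replicate 3 the dcKO value was -1.29 (edgeR adjusted p = 3.55e-04), and without replicate 2 it was -0.94 (adjusted p = 0.0273, a fold change under the limit of a call). Without replicate 3, 2088 of the 13680 genes tested were called lower in dcKO and 1157 higher, so that the calls of the 3 collagens stand among many.

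**Figure D1:**
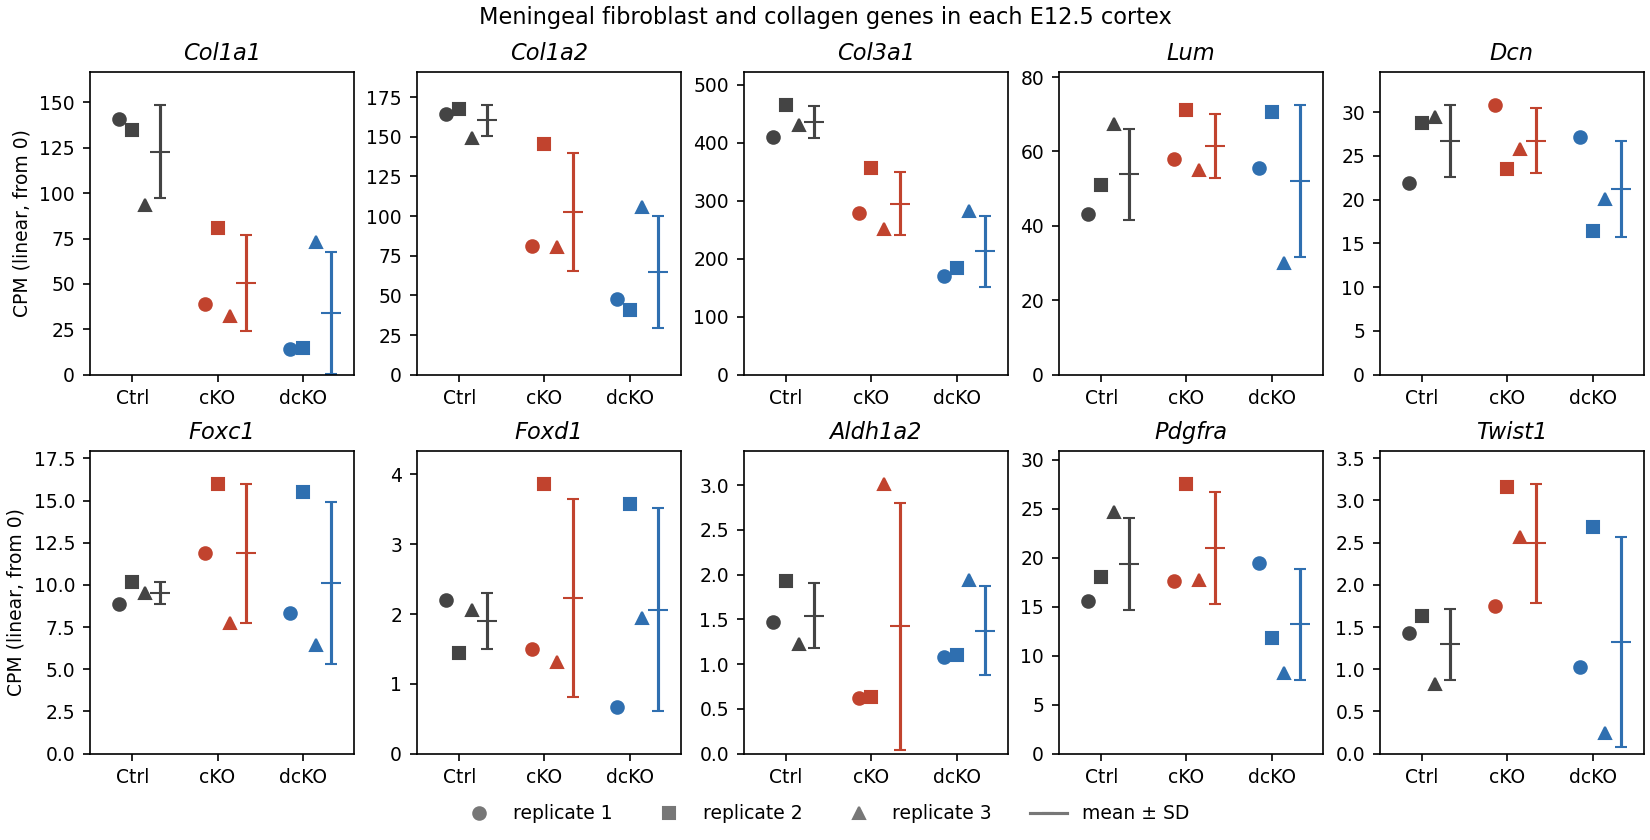
CPM of the 10 members (linear axes from 0, each panel with its own range) in the 3 Ctrl, 3 cKO and 3 dcKO embryos. Marker shapes give the replicate number, and horizontal ticks with bars give the mean ± SD of 3 embryos. The Ctrl points of Col1a1 (93.3 to 141 CPM), Col1a2 (149 to 168 CPM) and Col3a1 (410.5 to 466 CPM) lie above all mutant points, and in the other panels the genotypes overlap, except for Twist1 in cKO.

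In cKO, 3 of the 9 tested members lay below Ctrl in every embryo, and 28% of all tested genes did so, with 29.2% above. In dcKO the same 3 of 9 members lay below, against 11.2% of all tested genes, with 15.6% above. The two-sided exact permutation test gave p = 0.1 for each collagen in each mutant, the smallest value that 3 embryos against 3 allow. In cKO edgeR called 0 members in either direction (0.0146% of all tested genes were called higher and 0% lower), 1 member was lower and 0 higher at an unadjusted p under 0.05 (11.7% and 15.3% of all tested genes), and DESeq2 called 0 (4.94% of all genes higher and 3.87% lower). In dcKO edgeR called 0 members (0% and 0% of all genes), 3 were lower and 0 higher at an unadjusted p under 0.05 (11.2% and 18% of all tested genes), and DESeq2 called 3 members lower and 0 higher (3.79% and 4.66% of all genes). Because both mutants were tested against the same 3 Ctrl embryos, their values are not independent of each other.

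Col1a1 and Col1a2 are GC-rich, above 93.4% and 80.6% of the tested genes in GC content, and Col3a1 is less so (above 64.0%). Tested genes of like GC content were also lower in the median in both mutants, by little near Col3a1. The median log2 fold change of the 790 tested genes within 1 point of the GC content of Col1a1 (58.9% of its longest coding transcript) was -0.51 in cKO and -0.58 in dcKO, and Col1a1 itself stood at -1.28 and -1.86. For the 1310 genes near Col1a2 (55.7%) the medians were -0.25 and -0.36, and for the 1417 near Col3a1 (52.5%) they were -0.07 and -0.15. Each collagen was thus lower than the median of genes of its own GC content in both mutants. When each embryo's trend with GC content was subtracted, the dcKO log2 fold changes became -1.43 ± 0.28 for Col1a1, -0.98 ± 0.19 for Col1a2 and -0.92 ± 0.15 for Col3a1, each with an edgeR adjusted p of 0.0424, and Col1a1 alone also passed the fold change limit of a call. In cKO they became -0.81 ± 0.27 for Col1a1 (edgeR adjusted p = 0.0656), -0.45 ± 0.18 for Col1a2 (adjusted p = 0.105) and -0.56 ± 0.15 for Col3a1 (adjusted p = 0.0380). What part of the differences GC content accounts for was not tested.

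**Figure D2:**
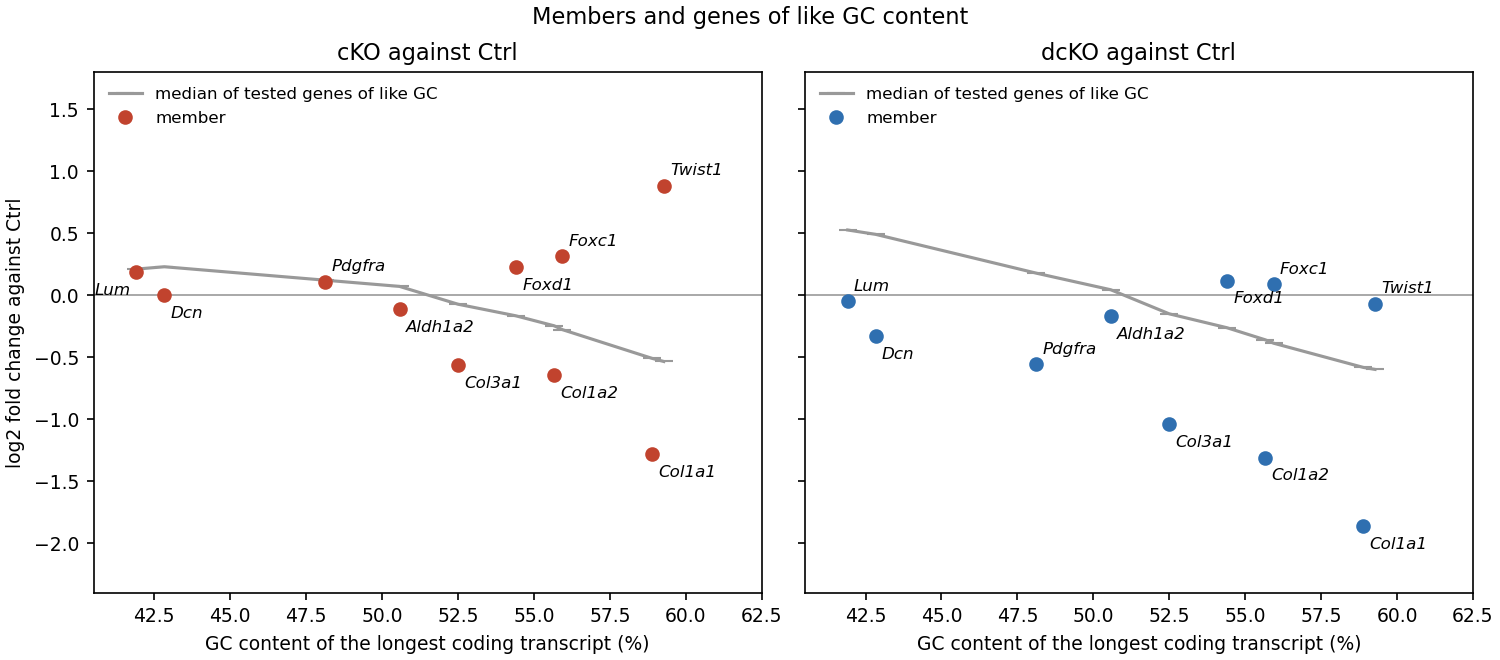
Log2 fold change against Ctrl of each member (points) by the GC content of its longest coding transcript, in cKO (left) and dcKO (right). The grey line joins the median log2 fold changes of the tested genes within 1 point of GC content of each member: near Lum they are 0.21 (cKO) and 0.53 (dcKO), and near Twist1 they are -0.53 and -0.60. The 3 collagens, Lum, Dcn, Aldh1a2 and Pdgfra lie below the line in both panels, with Dcn at -0.33 against 0.49 in dcKO, and Foxc1, Foxd1 and Twist1 lie above it.

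Lum and Dcn encode lumican and decorin, small leucine-rich proteoglycans that bind collagen fibrils and set their spacing. They are neighbours on chromosome 10 (Lum at chr10:97565128-97572703 and Dcn at chr10:97479609-97518143). Lum was at 43.2, 51.0 and 67.3 CPM in Ctrl, at 58.0, 71.2 and 54.9 CPM in cKO, and at 55.7, 70.6 and 30.1 CPM in dcKO. Dcn was at 21.9, 28.8 and 29.4 CPM in Ctrl, at 30.8, 23.5 and 25.8 CPM in cKO, and at 27.2, 16.4 and 20.1 CPM in dcKO. For both genes the 3 genotypes overlapped, and the embryo with the least Lum, dcKO replicate 3, was the dcKO embryo with the most collagen.

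The log2 fold changes of Lum were 0.19 ± 0.30 in cKO (edgeR adjusted p = 0.715) and -0.05 ± 0.30 in dcKO (adjusted p = 0.927), and those of Dcn were 0.00 ± 0.25 (adjusted p = 0.999) and -0.33 ± 0.25 (adjusted p = 0.391). Both genes are GC-poor, and the tested genes of their GC content had medians of 0.53 near Lum and 0.49 near Dcn in dcKO. With the GC trend subtracted, Lum stood at -0.58 ± 0.18 (edgeR adjusted p = 0.0832) and Dcn at -0.73 ± 0.25 (adjusted p = 0.105) in dcKO, and in cKO the values were -0.06 and -0.26. On that scale the DESeq2 adjusted p in dcKO was 0.0350 for Lum and 0.0484 for Dcn, with fold changes under the limit of a call, and edgeR's test was not passed on either scale. With the collection number as a block, which leaves a single pair of embryos to set the value, edgeR put Lum at -1.16 in dcKO.

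Foxc1, Foxd1 and Twist1 encode transcription factors. FOXC1, a forkhead factor, is needed for the meninges and skull to form. Its gene (chr13:31806633-31812476) was at 8.89, 10.2 and 9.52 CPM in Ctrl, at 11.9, 16.0 and 7.73 CPM in cKO, and at 8.33, 15.5 and 6.46 CPM in dcKO. Ctrl embryos were close together, with a coefficient of variation of 6.71%, and each mutant had embryos on both sides of them, with replicate 2 the highest in both. The log2 fold changes were 0.32 ± 0.38 in cKO (edgeR adjusted p = 0.620) and 0.09 ± 0.38 in dcKO (adjusted p = 0.891).

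FOXD1, another forkhead factor, marks the mesenchyme around the forebrain and the stroma of the kidney. Its gene (chr13:98354242-98359305) had 54, 29 and 57 reads in Ctrl, 41, 104 and 35 in cKO, and 24, 140 and 47 in dcKO, or 1.44 to 2.20, 1.32 to 3.87 and 0.666 to 3.58 CPM. Replicate 2 was the highest embryo of both mutants, and the other mutant embryos lay within or below the Ctrl range. The log2 fold changes of 0.23 ± 0.61 in cKO and 0.12 ± 0.61 in dcKO were smaller than their errors (edgeR adjusted p = 0.839 and 0.909).

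TWIST1, a basic helix-loop-helix factor of the cranial mesenchyme, keeps neural crest derived cells in a mesenchymal state. Its gene (chr12:33957671-33959829) had 35, 33 and 23 reads in Ctrl, 48, 85 and 68 in cKO, and 37, 105 and 6 in dcKO. All 3 cKO embryos (1.75, 3.16 and 2.56 CPM) lay above all 3 Ctrl embryos (1.43, 1.64 and 0.829 CPM), and the dcKO embryos spanned 0.248 to 2.68 CPM. Among the 16951 genes that edgeR's filterByExpr keeps, its log2 fold change was 0.88 ± 0.71 in cKO (edgeR adjusted p = 0.480) and -0.07 ± 0.71 in dcKO (adjusted p = 0.964). With the GC trend subtracted the values were 1.35 ± 0.91 and 1.49 ± 0.92, so that the dcKO value turned (edgeR adjusted p = 0.337 and 0.385). The exact permutation test gave p = 0.1 in cKO, and Twist1 was thus the only member higher than Ctrl in every embryo of a mutant, without passing the test across genes.

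Aldh1a2 and Pdgfra act in signalling. Aldh1a2 encodes the dehydrogenase that makes retinoic acid in the meninges, and its gene lies at chr9:71215789-71296243. It had 36, 39 and 34 reads in Ctrl, 17, 17 and 80 in cKO, and 39, 43 and 47 in dcKO. In CPM these were 1.23 to 1.93 in Ctrl, 0.620, 0.632 and 3.02 in cKO and 1.08, 1.10 and 1.95 in dcKO. The cKO embryos thus lay on both sides of Ctrl, with 2 below and replicate 3 above, and the log2 fold changes of -0.11 ± 0.62 in cKO and -0.17 ± 0.61 in dcKO did not pass the test (edgeR adjusted p = 0.922 and 0.870). The collagens gave no such pattern, since cKO replicate 3 was the lowest cKO embryo for each of the 3.

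PDGFRA is the alpha receptor for platelet-derived growth factor, carried by mesenchymal cells and, later in development, by oligodendrocyte precursors. The gene (chr5:75152292-75198215) overlaps exons of the antisense genes Gm42802 and Gm42803, and the strand setting of the count is not given in the sources used here, so its reads and theirs may not be separated. Pdgfra was at 15.5, 18.1 and 24.6 CPM in Ctrl, at 17.6, 27.6 and 17.7 CPM in cKO, and at 19.4, 11.9 and 8.28 CPM in dcKO. Each mutant overlapped Ctrl, and dcKO replicates 2 and 3 lay below the Ctrl range. Its log2 fold changes were 0.11 ± 0.35 in cKO (edgeR adjusted p = 0.861) and -0.56 ± 0.35 in dcKO (adjusted p = 0.309), the lowest value of dcKO outside the collagens, with embryos that overlapped.

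**Figure D3:**
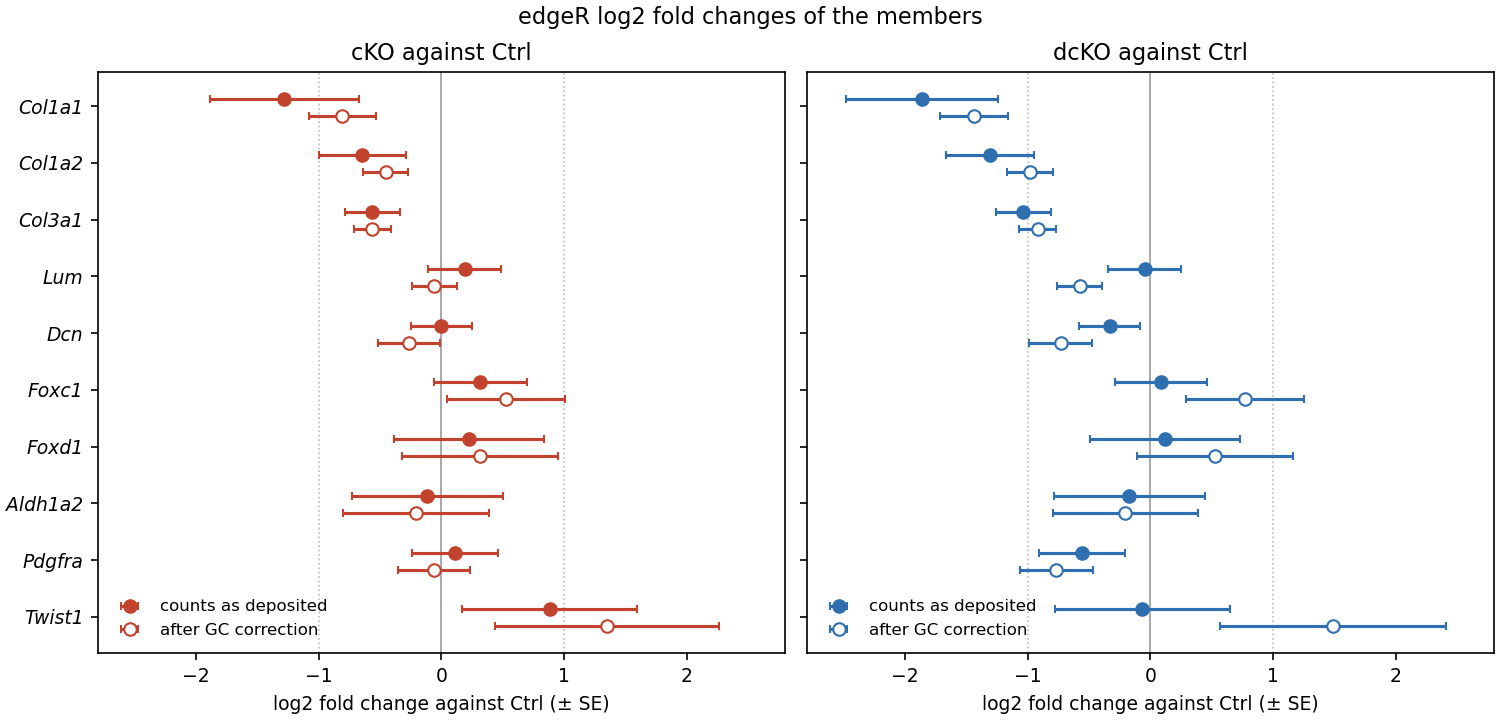
Log2 fold changes of the 10 members against Ctrl with their SE from edgeR, in cKO (left) and dcKO (right). Filled points use the counts as deposited and open points subtract each embryo's trend with GC content. Dotted lines mark a log2 fold change of 1 in either direction, and Twist1 comes from the fit with filterByExpr. The collagens are the only members at or below -1 in either panel on the deposited counts, and the GC correction moves Lum in dcKO from -0.05 to -0.58, Foxc1 from 0.09 to 0.77 and Twist1 from -0.07 to 1.49.

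A comparison of dcKO with cKO cortices asks what the loss of Trp53 adds to that of Cnot3. All 9 tested members had a log2 fold change below 0 on the counts as deposited, from -0.67 for Pdgfra to -0.06 for Aldh1a2, but the embryos of the 2 genotypes overlapped for all 9 (2.62% of all tested genes lay above cKO in every dcKO embryo and 3.63% below). Col1a1 was at -0.58 ± 0.60 (edgeR adjusted p = 0.910), Col1a2 at -0.66 ± 0.36 (adjusted p = 0.889) and Col3a1 at -0.47 ± 0.22 (adjusted p = 0.889). Neither edgeR nor DESeq2 called any member (edgeR called 0% of all genes higher and 0.0146% lower, DESeq2 0.0292% and 0.351%), and 0 members had an unadjusted edgeR p under 0.05 (2.05% of all genes were higher and 2.38% lower). The exact permutation p was 0.3 for each collagen. The direction turned for some members under other fits: the GC correction gave 0.24 for Foxc1 and 0.21 for Foxd1, and the collection number block gave 1.06 for Col1a1, called higher, and 0.11 for Col1a2. That block also called Lum (-1.58) and Pdgfra (-1.98) lower, among 1349 of 13680 genes called higher and 234 lower, and since no cKO and dcKO embryo share a collection number its values run through Ctrl and a single dcKO embryo. Without dcKO replicate 3, edgeR called Col1a1 (-1.81, adjusted p = 0.0144) and Col1a2 (-1.21, adjusted p = 0.0145) lower in dcKO than in cKO, in a fit that called 883 of the 13680 genes lower and 353 higher. Without cKO replicate 2 the values were -0.066 for Col1a1 and -0.33 for Col1a2, neither called.

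Some embryos carry a collection number in their sample code that they share with an embryo of another genotype, and what the number stands for is not stated. Within the shared numbers the collagens were lower in the mutant embryo each time. Col1a1 in cKO replicate 2 was 0.576 times its level in Ctrl replicate 1, in cKO replicate 3 it was 0.239 times that of Ctrl replicate 2, and in dcKO replicate 3 it was 0.782 times that of Ctrl replicate 3. For Col1a2 the ratios were 0.887, 0.481 and 0.708, and for Col3a1 they were 0.868, 0.538 and 0.655. Lum and Pdgfra in the dcKO pair were 0.447 and 0.336 times Ctrl. Under the block described next Pdgfra was at -1.57 in dcKO, a value with no spread between dcKO embryos behind it. With the collection number as a block in edgeR, which leaves this pair to set the dcKO value, the dcKO log2 fold change of Col1a1 was -0.36. That of Col1a2 was -0.50 and that of Col3a1 -0.61. In cKO the value rests on the pairs of cKO replicates 2 and 3 alone. There Col1a1 was at -1.42 and called lower, among 1029 of 13680 genes called lower and 957 higher in that fit.

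Most of the other listed matrix genes that were tested lay below Ctrl in dcKO. The list is not restricted to fibroblasts and includes collagens of basement membranes. Of 22 listed collagens and matrix proteins, 20 were tested, and in dcKO 13 of them lay below Ctrl in every embryo and 0 above (11.2% and 15.6% of all tested genes). The embryos of the other 7 overlapped, and Sparc (0.24), Ogn (0.15) and Thbs2 (0.64) had a log2 fold change above 0. The median log2 fold change was -0.89 in dcKO and -0.33 in cKO, against 0.11 and 0.01 over all tested genes. edgeR called 0 in either mutant (at an unadjusted p under 0.05, 14 were lower in dcKO, and 4 lower and 1 higher in cKO, where 11.2% of all tested genes were lower in dcKO, and 11.7% lower and 15.3% higher in cKO), and DESeq2 called 9 lower in dcKO and 1 in cKO (3.79% and 3.87% of all tested genes). The 1 in cKO was Fbln1, for the matrix glycoprotein fibulin 1, with a mean of 169 CPM in Ctrl, 77.1 in cKO and 70.9 in dcKO (DESeq2 adjusted p = 0.0188 in cKO and 0.00756 in dcKO). Col18a1, a collagen of basement membranes, had log2 fold changes of -1.12 in cKO and -1.36 in dcKO. In the other direction in cKO stood Thbs2, for thrombospondin 2 (1.11 in cKO and 0.64 in dcKO), and Tgfbi, for a matrix protein induced by TGF-beta (0.49 and -0.72). Named after their values were seen, Col4a1 and Col4a2, the main chains of the basement membrane, were at -1.66 and -1.88 in dcKO (DESeq2 adjusted p = 0.00292 and 0.00164). With the GC trend subtracted Col18a1 was at -0.44 in cKO and -0.72 in dcKO, and Col4a2 was at -1.21 in dcKO. Fbln1 in cKO was then at -0.99, just under the fold change limit of a call. Of the 9 that DESeq2 called in dcKO, Col18a1, Col5a1 (-0.49), Col6a1 (-0.91) and Col15a1 (-0.71) also came under it, and the rest stayed beyond.

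Genes for the maturation of collagen were near Ctrl in their median. Of 17 listed enzymes and chaperones 16 were tested, with a median log2 fold change of 0.02 in cKO and 0.07 in dcKO, and neither edgeR nor DESeq2 called any (3 of 16 were higher and 0 lower at an unadjusted p under 0.05 in each mutant, near the 15.3% of all tested genes higher in cKO and 18% in dcKO). In cKO 7 of 16 lay above Ctrl in every embryo and 2 below (29.2% and 28% of all tested genes). In dcKO 2 lay above and 0 below (15.6% and 11.2%). P4ha1, a subunit of the prolyl hydroxylase that stabilizes the triple helix, was at 53.8 CPM in Ctrl, 101 in cKO and 100.3 in dcKO, above Ctrl in every embryo of both mutants (log2 fold changes of 0.91 and 0.90, edgeR adjusted p = 0.0521 and 0.0519, DESeq2 adjusted p = 0.00587 and 0.00798, with fold changes under the limit of a call). P4ha2, another such subunit, was at 0.88 in cKO and 0.57 in dcKO. The GC correction gave 0.68 and 0.58 for P4ha1, and 0.98 and 0.76 for P4ha2. The lowest values in cKO were those of Bmp1, a protease that trims procollagen (-0.63 in cKO and -0.57 in dcKO), and Loxl1, a cross-linking oxidase (-0.51 and -0.47). Both are GC-rich, and with the GC trend subtracted Bmp1 was at -0.20 and -0.03 and Loxl1 turned to 0.24 and 0.23.

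Among 13 other transcription factors of the cranial mesenchyme 7 were tested and 1, Tcf21, had no read. The median log2 fold change was 0.17 in cKO and -0.01 in dcKO. edgeR called none. At an unadjusted p under 0.05, 1 of 7 was higher in cKO, near the 15.3% of all tested genes, and 0 in dcKO, against 18%. DESeq2 called Msx2 higher in cKO, where it called 4.94% of all tested genes higher. Msx2 was at a mean of 1.53 CPM in Ctrl and 6.10 in cKO (log2 fold change 1.99, DESeq2 adjusted p = 0.0221). MSX2 is a homeodomain factor of neural crest mesenchyme and of the dorsal midline. Snai2, for a factor of the mesenchymal transition, was at 0.94 in cKO and 0.92 in dcKO, Prrx1 at -0.48 and -0.01, and Alx4 at -0.43 and -0.72. The GC correction moved Snai2 in dcKO to 0.36, Prrx1 to -0.74 in cKO and -0.52 in dcKO, and Alx4 in dcKO to -0.33. Prrx1 was at 89.6 CPM in dcKO replicate 2 and at 23.9 to 50.9 CPM in all other embryos, so that this embryo, which also held reads of ventral factors, set the dcKO mean.

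The ligands and the second receptor of the PDGF pathway were all tested. Pdgfd was at 1.19 CPM in Ctrl, 4.23 in cKO and 3.08 in dcKO, above Ctrl in every embryo, and DESeq2 called it higher in both mutants (log2 fold changes of 1.83 and 1.38, DESeq2 adjusted p = 0.00212 and 0.0250, edgeR adjusted p = 0.0514 and 0.0744). Pdgfrb, the receptor of pericytes, and Pdgfb, its ligand from endothelium, were called lower by DESeq2 in dcKO, at -1.03 and -1.50 (edgeR adjusted p = 0.0638 and 0.104), and stood at -0.34 and -0.96 in cKO. Pdgfa and Pdgfc, the ligands of the alpha receptor, were at -0.41 and 0.08 in cKO and at -0.25 and 0.32 in dcKO. The GC correction placed Pdgfb at -0.33 in cKO and -0.85 in dcKO, and Pdgfc in cKO turned to -0.02. After it Pdgfd in dcKO (0.87), Pdgfrb (-0.72) and Pdgfb were all under the fold change limit of a call. edgeR called 0 of the 5 genes in either mutant (1 higher at an unadjusted p under 0.05 in each, and 2 lower in dcKO). Of all tested genes, 15.3% were higher at that p in cKO and 18% in dcKO, and 11.2% were lower in dcKO. DESeq2 called 4.94% of them higher in cKO, and 4.66% higher and 3.79% lower in dcKO. Above Ctrl in every embryo lay 29.2% of all tested genes in cKO and 15.6% in dcKO.

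Of 13 genes for the synthesis, binding, breakdown and reception of retinoic acid, 9 were tested, with medians of -0.21 in cKO and -0.63 in dcKO. edgeR called none (at an unadjusted p under 0.05, 1 of 9 was lower in cKO, near the 11.7% of all tested genes, and 3 of 9 in dcKO, against 11.2%). DESeq2 called 3 of 9 lower in dcKO, against 3.79% of all tested genes. They were Crabp1, for a cellular binding protein (-1.19), and, named after their values were seen, the receptor genes Rarb (-1.61) and Rarg (-1.06). Rara, the other receptor of that family, was at -0.85 in cKO and -0.87 in dcKO with dcKO embryos that overlapped Ctrl. With the GC trend subtracted the dcKO values were -0.54 for Crabp1, -1.82 for Rarb and -0.38 for Rarg, and Rara was at -0.30 in cKO and -0.44 in dcKO. The transporter gene Stra6 was at 0.14 in both cKO and dcKO, and at 0.39 and 0.49 after the GC correction.

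Markers of other cells in or around the cortex moved beside the members. The summed level of 9 endothelial markers was 252 to 338 CPM in Ctrl, 239 to 340.5 in cKO and 170.3 to 184 in dcKO, so that dcKO lay below Ctrl in every embryo as the collagens did, and cKO did not. All 9 were tested: in dcKO 6 were below Ctrl in every embryo, with a median of -0.80, and in cKO 0 were, with a median of -0.01 (11.2% and 28% of all tested genes). Tie1 was at -0.50 in cKO and -1.52 in dcKO and Cldn5 at -0.44 and -1.35, while Tek (0.38 and -0.39) and Emcn (0.37 and 0.19) were above Ctrl in the mean of cKO. After the GC correction Cldn5 was at 0.16 in cKO and -0.90 in dcKO, and Emcn in dcKO turned to -0.36. Tie1 was then at -0.16 in cKO and -1.13 in dcKO, and Tek at 0.19 and -0.63. edgeR called 0 endothelial genes in either mutant (5 were lower at an unadjusted p under 0.05 in dcKO, against 11.2% of all tested genes, and 0 in cKO), and DESeq2 called 3 lower in dcKO, against 3.79%.

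The 7 pericyte markers, of which Pdgfrb is also in the PDGF list, summed to 115 to 127 CPM in Ctrl, 78.5 to 114 in cKO and 50.0 to 84.4 in dcKO. Both mutants thus lay below Ctrl in every embryo, the highest cKO embryo only narrowly, and 4 of 7 were below in every dcKO embryo (median -0.87, DESeq2 called 2 lower, edgeR 0, with 3 lower at an unadjusted p under 0.05). The shares of all tested genes were 11.2% below in every dcKO embryo, 3.79% called lower by DESeq2 and 11.2% lower at that p. Vtn, for the adhesion protein vitronectin, was at -0.96 in cKO and -1.57 in dcKO, Cspg4 at -0.51 and -0.87, Abcc9 at 0.27 and -0.84 and Anpep at 0.29 and -0.95. After the GC correction Cspg4 was at -0.03 and -0.46, and Abcc9 at 0.05 and -1.12. The part of vessel cells in the levels of the collagens was not tested.

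The 8 macrophage markers summed to 47.3 to 56.7 CPM in Ctrl, 65.9 to 127 in cKO and 23.0 to 42.6 in dcKO. The order differs from that of the collagens, with cKO above Ctrl and dcKO below. Mrc1, a receptor of border and tissue macrophages, was at 11.3 CPM in Ctrl, 33.6 in cKO and 10.9 in dcKO (DESeq2 adjusted p = 0.00105 in cKO, edgeR adjusted p = 0.0514). Fcer1g was at 1.06 in cKO and -0.14 in dcKO, C1qb at 0.50 and -1.04 and Cx3cr1 at 0.48 and -0.53. The GC correction moved C1qb to 0.84 and -0.52, and placed Mrc1 at 1.32 and -0.48. The 8 erythroid genes, which report blood in the tissue, summed to 7437 to 10986 CPM in Ctrl, 9195 to 13957 in cKO and 4843 to 6632 in dcKO. Hbb-bh1 was at 0.95 in cKO and 0.14 in dcKO, and the paralogs Hba-a1 and Hba-a2, whose reads cannot be fully separated, at -0.25 and -0.14 in cKO and -1.06 and -0.98 in dcKO. After the GC correction Hba-a1 and Hba-a2 were at 0.15 and 0.23 in cKO and -0.45 and -0.39 in dcKO, and Hbb-bh1 in dcKO turned to -0.16.

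The summed markers of surface epithelium and choroid plexus were low in Ctrl and higher in most mutant embryos. The 7 epithelial genes summed to 2.49 to 3.17 CPM in Ctrl, 14.9 to 23.0 in cKO and 22.6, 2.12 and 24.4 in dcKO replicates 1 to 3. Trp63, for a factor of the epidermis, had 9 and 8 reads in Ctrl replicates 1 and 2 and none in the other embryos, the epidermal keratin gene Krt14 had no read in any mutant and Krt5 reached at most 0.472 CPM, and the sum came from Krt18, Krt8 and Epcam, which simple epithelia express. Epcam, the only one tested, was at 1.77 in cKO and 2.01 in dcKO (DESeq2 adjusted p = 0.0174 and 0.00669). The 5 choroid plexus genes summed to 0.652 to 1.83 CPM in Ctrl, 14.3 to 56.6 in cKO and 10.5 to 92.6 in dcKO, and Ttr, which encodes transthyretin and defines that epithelium, was at 0 in all Ctrl embryos and at 3.42 to 56.9 CPM in the mutants. dcKO replicate 1 had the most choroid plexus RNA and the least Col1a1 and Col3a1. dcKO replicate 2 had nearly as little Col1a1 and the least choroid plexus RNA of the mutants. What part the border of the dissected tissue has in these levels was not tested.

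**Figure D4:**
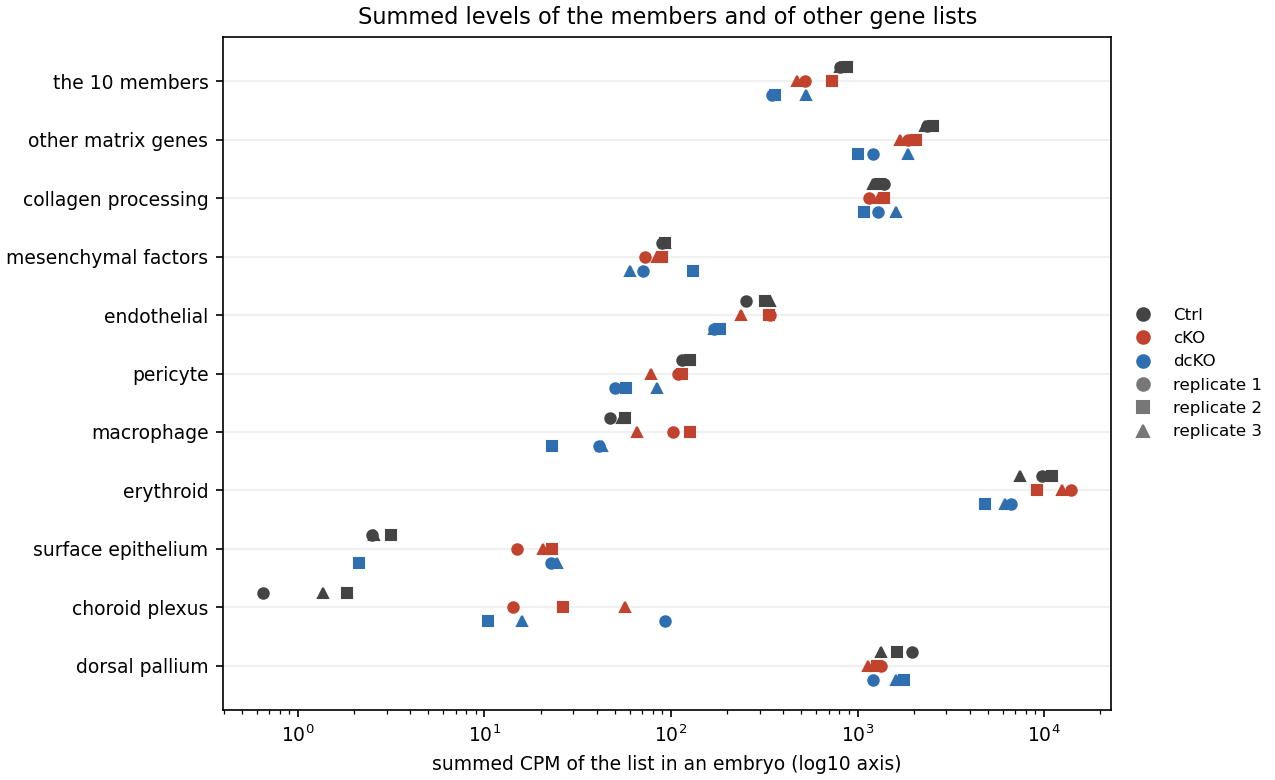
Summed CPM per embryo (log10 axis) of the 10 members and of 10 other gene lists, with the genotype as colour and the replicate as marker shape. The members sum to 809 to 881 CPM in Ctrl, 477 to 729 in cKO and 346 to 530.2 in dcKO. The dcKO sums of other matrix, endothelial, pericyte, macrophage and erythroid genes also lie below all Ctrl embryos, and the choroid plexus sums of all mutant embryos lie above.

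Bone, cartilage and muscle genes were near 0 apart from Alpl, the alkaline phosphatase gene, at 9.40 to 24.2 CPM in all embryos (-0.23 in cKO and -0.52 in dcKO, or 0.05 and -0.05 after the GC correction), while Ibsp and Myf5 had no read. The neural markers of the dorsal cortex summed to 1332 to 1966 CPM in Ctrl, 1139 to 1337 in cKO and 1206 to 1775 in dcKO. Emx1, whose locus drives the Cre, was at -1.85 in cKO and -1.13 in dcKO, and Lhx2 at -1.19 and -0.51, and DESeq2 called both lower in cKO. The GC correction brought these values to -0.51 and -0.15 for Emx1 and -0.68 and 0.31 for Lhx2, so that the dcKO value of Lhx2 turned. The neuronal genes Neurod6 and Tbr1 were at 0.82 and 0.27 in cKO and 0.35 and 0.03 in dcKO, where Neurod6 was at -0.01 with the GC trend subtracted. The subpallial gene Lhx6 was at 1.50 in cKO and 0.47 in dcKO, or 1.71 and 1.01 after the GC correction.

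The members did not vary as a single group across the 9 embryos. With each tested member centred and scaled over the embryos and averaged, the mean was highest in cKO replicate 2 (0.61) and in the Ctrl embryos (0.18 to 0.57), and lowest in the dcKO embryos (-0.69 to -0.44), with cKO replicates 1 and 3 at -0.07 and -0.09. cKO replicate 2 was the highest of all embryos for Lum, Foxc1, Foxd1, Pdgfra and Twist1, and the highest cKO embryo for the collagens. Across the 9 embryos the correlation of a member with the mean of the 9 was 0.861 for Col3a1, 0.807 for Col1a2, 0.735 for Col1a1 and 0.690 for Pdgfra, from 0.359 to 0.414 for Foxc1, Lum, Foxd1 and Dcn, and -0.148 for Aldh1a2. Each member is itself a part of that mean, and the points share their libraries.

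The 10 tested genes outside the members whose log2 CPM was most like that mean over the 9 embryos had Pearson correlations of 0.919 to 0.958 and Spearman correlations of 0.817 to 0.967. They were Gm43555, Bgn, Sept8, Rcsd1, Treml1, Cdh5, Gm10154, Itgb3, Thsd1 and Slc43a2. Bgn encodes biglycan, a proteoglycan of the same family as decorin, and was at 61.9 CPM in Ctrl, 60.3 in cKO and 26.5 in dcKO. Cdh5 encodes the cadherin of endothelial junctions, and was at 66.8, 66.1 and 30.9 CPM. Itgb3, an integrin gene, was at 16.0, 10.5 and 4.87 CPM. For all 10 the mean level of dcKO was the lowest of the 3 genotypes, and no test was made of genes chosen in this way.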

How the data were processed

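Cortices of 9 embryos at E12.5, 3 of each genotype, were sequenced as stranded poly(A) libraries in paired 150 base reads. The authors trimmed reads with cutadapt, checked them with FastQC, aligned them to mm39 with STAR and deposited raw counts per gene from featureCounts. The strand setting of the count is not given in the sources used here. The notes also name DESeq2. Each library is a separate embryo, and groups were taken from the sample titles. The members and gene lists were chosen with earlier results of these data known.

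The genes whose count exceeded 10 in each embryo (13680 of 57010, of which 30138 had no read) were tested with edgeR's quasi-likelihood test (edgeR 4.0.16, R 4.3.3) with TMM factors over all 9 embryos. A gene was called where its Benjamini-Hochberg adjusted p was below 0.05 and its log2 fold change beyond 1 in either direction. Alternatives were DESeq2 1.42.0, RLE factors, other filters, fits on the embryos compared, leaving out each embryo, blocks for the replicate or collection number, and a GC correction. For that correction a loess trend (span 0.3) of log2 CPM (prior count 0.5) on the GC content of the longest coding transcript was subtracted for each embryo over 13561 genes. Single genes were also tested by an exact two-sided permutation test over embryos, whose smallest p is 0.1. In dcKO the median log2 fold change of all tested genes was 0.11, and in cKO 0.01. Scripts were tested on simulated data.

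Gene symbols, positions and coding sequences are those of GENCODE M21 (GRCm38), and positions were not converted to mm39, the build of the counts. Named genes were the members, Cnot3 and Trp53, the 2 highest and 2 lowest tested genes of each list in cKO against Ctrl with any gene called, and the 10 genes most like the mean of the members. A few genes that this rule names are not reported here. Counts and figures used Python 3.11.15, pandas 2.3.3, NumPy 2.4.6, SciPy 1.17.1 and matplotlib 3.10.9.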

Additional observations from a re-analysis of the deposited data

How the results depend on the processing

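edgeR called 0 members in all 3 comparisons, and the counts moved as follows. In cKO against Ctrl, Col1a1 was the 1 member called lower when only the 6 embryos compared entered the fit (813 of 13680 genes were called lower then) and under the collection number block (1029), and leaving out 1 embryo gave 0 to 1 (Col1a1, without dcKO replicate 3, when 751 genes were called lower). In dcKO against Ctrl, the 3 collagens were called lower by DESeq2, without a filter on low counts (379 of 26872 genes called lower) and at an adjusted p under 0.1 (394 of 13680 genes called lower). Col1a1 was the 1 called with the GC correction (62 of 13561 genes called lower) and with DESeq2 and that correction (185), and Lum and Pdgfra were the 2 called under the collection number block, which called 404 of 13680 genes lower and 1229 higher. Leaving out 1 embryo gave 0 to 3, and the 3 were the collagens without dcKO replicate 3, when 2088 of 13680 genes were called lower. In dcKO against cKO the collection number block called 1 member higher (Col1a1) and 2 lower (Lum at -1.58 and Pdgfra at -1.98), among 1349 and 234 of all genes, and leaving out 1 embryo gave 0 to 2 (Col1a1 and Col1a2, without dcKO replicate 3, when 883 genes were called lower). The cause of these differences was not tested. The replicate numbers did not pair the embryos: deviations from the genotype means had a mean correlation of -0.169 over the 9 same-numbered pairs and 0.0836 over the 18 others, and with the replicate block edgeR called 0 members in each comparison.

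Of 567 values of single members under an alternative, 479 kept their direction and side of the threshold, 20 passed it in the same direction and 68 changed sign, none of the 68 a collagen against Ctrl. In cKO against Ctrl, the sign changed for Lum at -0.057, Dcn at -0.26 and Pdgfra at -0.063 under the GC correction, and for Lum at -0.065, Dcn at -0.27 and Pdgfra at -0.087 under the replicate block with the GC correction, and for Lum at -0.057, Dcn at -0.26 and Pdgfra at -0.062 under DESeq2 with the GC correction, and for Dcn at -0.012 under RLE factors. It changed as well for Dcn at -0.012 under DESeq2, and for Dcn at -0.021 and Foxd1 at -0.031 under the replicate block, and for Dcn at -0.028 under the collection number block, and for Dcn at -0.060 under a fit with no filter. It changed as well for Dcn at -0.061 under filterByExpr. In dcKO against Ctrl, the sign changed for Foxc1 at -0.027 and Foxd1 at -0.19 under the replicate block, and for Foxc1 at -0.56, Foxd1 at -0.079 and Aldh1a2 at 0.66 under the collection number block, and for Foxc1 at -0.021 under a fit with no filter, and for Foxc1 at -0.0069 under filterByExpr. It changed as well for Twist1 at 0.019 under RLE factors, and for Twist1 at 0.017 under DESeq2, and for Twist1 at 1.49 under the GC correction, and for Twist1 at 0.97 under the replicate block with the GC correction. It changed as well for Twist1 at 1.50 under DESeq2 with the GC correction. In dcKO against cKO, the sign changed for Col1a1 at 1.06, Col1a2 at 0.11 and Aldh1a2 at 0.85 under the collection number block, and for Foxc1 at 0.24, Foxd1 at 0.21 and Twist1 at 0.14 under the GC correction, and for Foxc1 at 0.090, Foxd1 at 0.077 and Aldh1a2 at 0.22 under the replicate block with the GC correction. It changed as well for Foxc1 at 0.25, Foxd1 at 0.22, Aldh1a2 at 0.0028 and Twist1 at 0.15 under DESeq2 with the GC correction, and for Aldh1a2 at 0.16 under the replicate block. Leaving out 1 embryo turned the sign of these values, given with their range: in cKO against Ctrl Dcn (-0.12 to 0.084), Foxd1 (-0.43 to 0.49), Aldh1a2 (-1.30 to 0.25) and Pdgfra (-0.14 to 0.32), in dcKO against Ctrl Lum (-0.33 to 0.23), Foxc1 (-0.36 to 0.33), Foxd1 (-0.57 to 0.54), Aldh1a2 (-0.49 to 0.022) and Twist1 (-1.04 to 0.43), and in dcKO against cKO Lum (-0.52 to 0.040), Foxc1 (-0.68 to 0.044), Foxd1 (-0.79 to 0.55) and Aldh1a2 (-0.41 to 1.09). The DESeq2 and GC correction together and the limit of 0.1 were added after the data were seen. Foxd1, Aldh1a2 and Twist1 had 6 to 140 reads per embryo.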
